A study of Mus musculus with 6 samples.

Results

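The tumour necrosis factor (TNF) superfamily comprises ligands, most of them trimeric membrane proteins that can be shed, and the matching receptor superfamily comprises cell surface proteins with cysteine-rich domains. Members were taken from the deposited gene table by name: 31 genes matched the pattern Tnfsf or Tnfrsf followed by a number and at most 1 letter, and 13 were added under their own symbols (Tnf, Lta, Ltb, Ltbr, Fas, Fasl, Cd40, Cd27, Cd70, Eda, Edar, Eda2r and Ngfr). The 44 members, of 35434 genes in all, were 17 ligands and 27 receptors. FPKM (fragments per gene, scaled to gene length and to library depth) was 0.5 or more in 3 or more of the 6 samples for 34 of them, and only those 34 were tested.

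The tissue was lesional skin of mice with psoriasis, profiled by bulk RNA sequencing after transfer of regulatory T cells (Tregs). The 3 Ctrl-Treg samples came from lesions of recipients of control Tregs and the 3 Lenv-Treg samples from recipients of lenvatinib-treated Tregs. Lenvatinib is an inhibitor of several receptor tyrosine kinases, and the series title names the anti-inflammatory effect of such Tregs as its subject. The mouse strain, age, the agent that induced the lesions, the dose and timing of the cells and whether each sample was 1 mouse are not stated in the labels used, so p-values measure only the spread between these samples, which may be technical.

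Ligands of this family bind receptors that either carry an intracellular death domain, as Fas and the TNF receptor Tnfrsf1a do, or recruit TRAF adaptors directly, and both routes can lead to NF-κB activation while the death domain route can also lead to caspase activation. In skin, TNF acts on keratinocytes, endothelium and macrophages and is a therapeutic target in psoriasis. The ectodysplasin branch (Eda, Edar, Edaradd) has another role, the formation and cycling of hair follicles and other appendages.

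Depth was alike in the 6 libraries, at 38704536 to 40248462 assigned reads. Across all 13945 tested genes, 11.0% were higher and 30.8% were lower in Lenv-Treg (limma, Benjamini-Hochberg adjusted p under 0.05), 41.7% in all, and the median difference was -0.17 on the log2(FPKM + 1) scale. With median of ratios scaling that median was 0.00, and with rescaling of each library to a fixed sum (TPM) it was -0.44. The calls split into 1532 higher and 4289 lower as deposited, 2417 and 2417 with the former scaling, and 947 and 7970 with the latter. Cell type markers differed widely between the groups. Summed FPKM of 9 neutrophil markers was 73.2 to 227 in Ctrl-Treg against 38200 to 53900 in Lenv-Treg. The Lenv-Treg sum was mostly S100a8 and S100a9 (means 21900 and 24400 FPKM, beside 46.9 and 56.3 in Ctrl-Treg). All 9 rose, but by unlike amounts: mean FPKM went from 2.95 to 19.6 for Csf3r, 1.5 to 17.6 for Cxcr2 and 29.0 to 41.4 for Il1r2. The 12 hair follicle markers summed to 1360 to 2950 against 11.2 to 27.2, and 5 melanocyte markers to 112 to 180 against 7.84 to 10.9. The 6 keratinocyte markers summed to 2730 to 4390 in Ctrl-Treg against 7300 to 9060 in Lenv-Treg, but went both ways: Krt14 (means 769 and 4430 FPKM) and Krt5 rose, Krt10 (390 and 180 FPKM) fell, and Krt1, Trp63 and Dsp did not pass. In bulk tissue, fewer cells of a type and less RNA per cell cannot be told apart.

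Of the 34 tested members, 11 were higher (32.4%, beside 11.0% of all tested genes) and 7 were lower (20.6%, beside 30.8%) in Lenv-Treg, and 16 did not pass the test. Their median difference was 0.20 on the log2(FPKM + 1) scale. It was 0.35 with median of ratios scaling and 0.00 with TPM scaling, while the count of higher members went to 14 and 6 and that of lower members to 6 and 8. Among the 10 tested ligands 4 rose and 2 fell, and among the 24 tested receptors 7 rose and 5 fell. The groups did not overlap for 21 of the 34 (61.8%), where 55.4% of all tested genes did not. Tnfsf11 entered the test through the Lenv-Treg samples alone and Tnfrsf13c through the Ctrl-Treg samples alone, so both had to differ. Of the other 32 members, 10 rose and 6 fell. A difference of at least 1 with an adjusted p under 0.05 was found for 2 higher members, Tnf and Tnfsf14, and for 1 lower member, Tnfrsf19 (over all genes, 3.76% and 5.85%, 9.61% together).

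**Figure D1:**
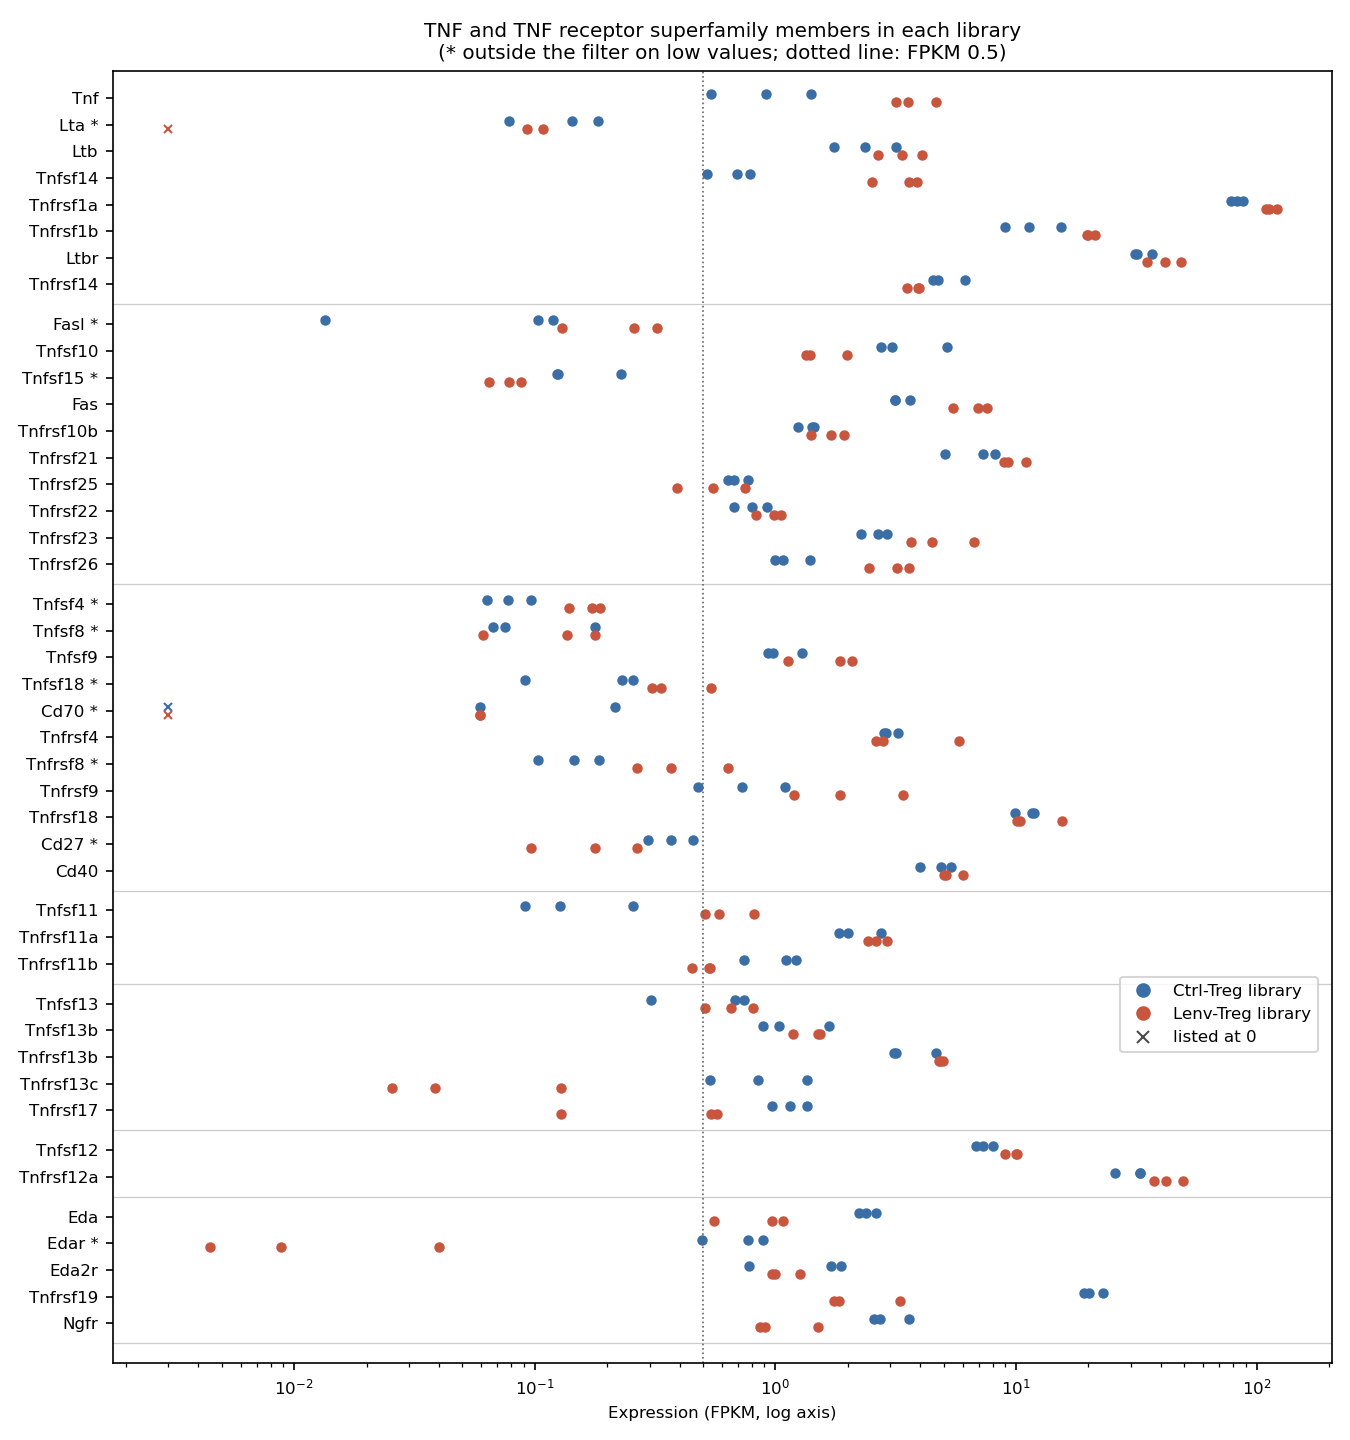
FPKM of all 44 members in each library on a log axis, grouped by role, with Ctrl-Treg libraries in blue and Lenv-Treg libraries in red. Crosses mark values listed at 0, asterisks mark the 10 members outside the filter, and the dotted line is FPKM 0.5. Tnfrsf1a is the receptor with the highest level in every library, and the 3 Edar values of Lenv-Treg lie far to the left of the Ctrl-Treg ones.

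**Figure D2:**
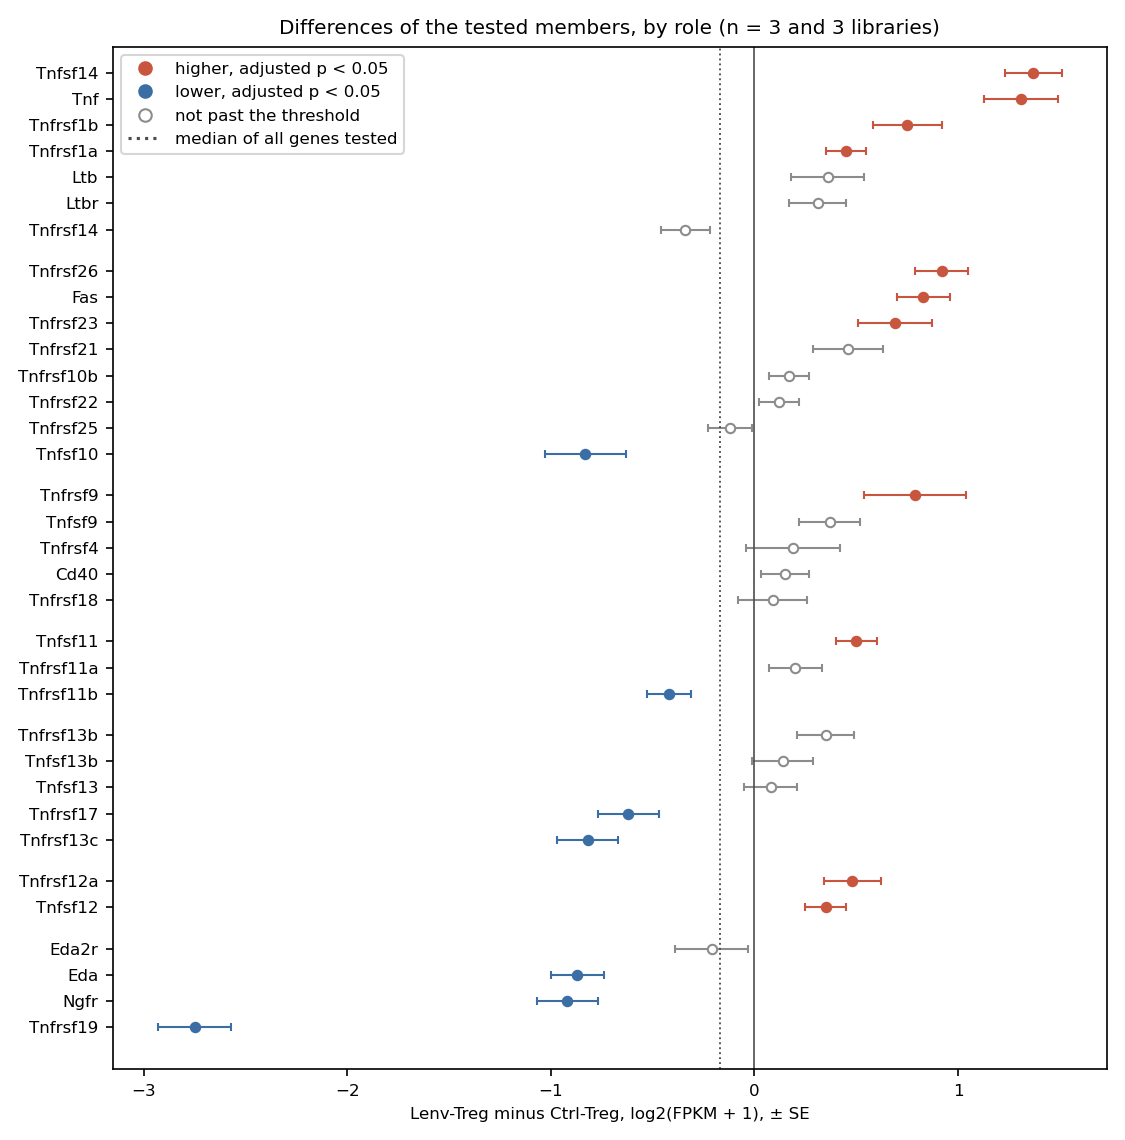
Difference in log2(FPKM + 1), Lenv-Treg minus Ctrl-Treg, with its standard error for the 34 tested members, ordered by role. Filled points passed the threshold of 0.05 (11 red, higher, and 7 blue, lower), and the dotted line is the median of all tested genes, -0.17. Tnfsf14 and Tnf lie farthest to the right and Tnfrsf19 farthest to the left.

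Receptor transcripts were far more abundant than ligand transcripts. The 27 receptors summed to 248, 235 and 223 FPKM in Ctrl-Treg replicates 1 to 3 and to 267, 281 and 314 FPKM in Lenv-Treg replicates 1 to 3. The 17 ligands summed to 25.2, 18.2 and 20.6 FPKM and to 27.2, 26.6 and 30.4 FPKM. Both sums were higher in every Lenv-Treg sample than in any Ctrl-Treg sample, and for both the exact two-sided permutation test gave p = 0.1, the smallest that 3 against 3 samples allow. The sums used FPKM as deposited and were not taken under other scalings. With TPM scaling the log2 differences of Tnfrsf1a, Ltbr and Tnfrsf12a were 0.17, 0.03 and 0.20, beside 0.45, 0.31 and 0.48 as deposited. Receptor FPKM exceeded ligand FPKM 9.84-fold to 12.9-fold in Ctrl-Treg against 9.8-fold to 10.5-fold in Lenv-Treg. The 3 receptors Tnfrsf1a, Ltbr and Tnfrsf12a held 60.7% to 63.6% of the receptor sum in Ctrl-Treg against 68.0% to 69.7% in Lenv-Treg. Tnfrsf1a alone held 35% to 35.5% and 38.6% to 40.8%. By mean FPKM, Ltbr and Tnfrsf12a ranked 2 and 3 in Ctrl-Treg against 3 and 2 in Lenv-Treg, and their values overlapped in both groups. Tnfrsf19 ranked 4 in Ctrl-Treg, with no overlap with Tnfrsf12a above it or Tnfrsf1b below it, and 15 in Lenv-Treg.

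Tnf and Tnfsf14 (LIGHT) were the ligands with the largest rise on the log2(FPKM + 1) scale, at 3.97-fold and 5.0-fold in mean FPKM, and both TNF receptors rose with them, while Ltb and Ltbr did not pass the test and Lta was not tested. In this group of 8 genes 7 were tested, 4 rose (57.1%, beside 11.0% of all tested genes), none fell (beside 30.8%) and 3 did not pass. The median difference was 0.45 on the log2(FPKM + 1) scale, beside -0.17 for all tested genes. With TPM scaling these medians were 0.17 and -0.44. Tnf, the founding cytokine of the family, was 0.917, 0.541 and 1.41 FPKM in Ctrl-Treg replicates 1 to 3 and 3.18, 3.56 and 4.63 FPKM in Lenv-Treg replicates 1 to 3. Its lowest Lenv-Treg sample was above its highest Ctrl-Treg sample. Mean FPKM was 0.955 ± 0.434 and 3.79 ± 0.751 (SD, n = 3), a difference of 1.31 (SE 0.18, adjusted p = 0.00146, limma).

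Tnfsf14 encodes LIGHT, a ligand of the herpesvirus entry mediator and of the lymphotoxin beta receptor. It was 0.691, 0.522 and 0.786 FPKM in Ctrl-Treg against 2.53, 3.6 and 3.87 FPKM in Lenv-Treg. The groups were well apart, with means of 0.666 ± 0.133 and 3.33 ± 0.705 (SD, n = 3) and a difference of 1.37 (SE 0.14, adjusted p = 0.000391). The transcript of its receptor Tnfrsf14, the herpesvirus entry mediator, was 6.14, 4.54 and 4.72 FPKM in Ctrl-Treg against 3.92, 3.96 and 3.53 FPKM in Lenv-Treg. Tnfrsf14 was thus lower in all 3 Lenv-Treg samples than in any Ctrl-Treg sample, but its difference of -0.34 (SE 0.12, adjusted p = 0.0529) missed the threshold. It passed with TPM scaling (-0.64, adjusted p = 0.0101) and in the count-based voom fit (adjusted p = 0.0461), and was smaller with median of ratios scaling (-0.17, adjusted p = 0.324) and quantile normalization (-0.12, adjusted p = 0.498).

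Tnfrsf1a, the death domain receptor of TNF present on most cells, was 88.1, 82.9 and 78.1 FPKM in Ctrl-Treg against 109, 112 and 121 FPKM in Lenv-Treg. Every Lenv-Treg value was above every Ctrl-Treg value, with a mean ratio of 1.37 and a difference of 0.45 (SE 0.10, adjusted p = 0.0104). Tnfrsf1b, the TNF receptor that is most typical of leukocytes and endothelium, was 15.4, 11.3 and 8.98 FPKM and 21.3, 19.8 and 19.9 FPKM. It rose 1.71-fold, by 0.75 (SE 0.17, adjusted p = 0.0115). With TPM scaling neither receptor passed: the difference was 0.17 for Tnfrsf1a (adjusted p = 0.192) and 0.50 for Tnfrsf1b (adjusted p = 0.0635). Of 9 macrophage and monocyte markers 5 rose (55.6%, beside 11.0% of all tested genes) and 1 fell (11.1%, beside 30.8%). The one that fell was Adgre1 (means 112 and 61.3 FPKM), and Csf1r, C1qa and C1qb did not pass. The sums were 2130 to 2680 FPKM in Ctrl-Treg against 3320 to 3830 FPKM in Lenv-Treg. Their largest part was Lyz2 (means 1180 and 1970 FPKM). All 9 neutrophil markers rose. These cell types express Tnf, Tnfsf14 and Tnfrsf1b, and their part in the differences was not tested.

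Ltb, which encodes the membrane anchor of the lymphotoxin heterotrimer, was 3.18, 1.75 and 2.36 FPKM in Ctrl-Treg against 3.36, 2.68 and 4.06 FPKM in Lenv-Treg. The groups overlapped, and the difference of 0.36 (SE 0.18, adjusted p = 0.147) did not pass. It passed with quantile normalization (0.61, adjusted p = 0.0452) and was 0.17 with TPM scaling (adjusted p = 0.496). Lta was below 0.2 FPKM in all 6 samples (26 reads in Ctrl-Treg, 13 in Lenv-Treg) and was not tested. It was listed at 0 in Lenv-Treg replicate 2, where a floor of 3 reads allows up to 0.0458 FPKM. Their receptor Ltbr was abundant, at 33.2 ± 3.15 FPKM in Ctrl-Treg against 41.7 ± 6.62 FPKM in Lenv-Treg (SD, n = 3), with a difference of 0.31 (SE 0.14, adjusted p = 0.104). It passed with median of ratios scaling (0.52, adjusted p = 0.0325) and without Lenv-Treg replicate 1 (adjusted p = 0.0394), and was 0.03 with TPM scaling (adjusted p = 0.849).

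**Figure D3:**
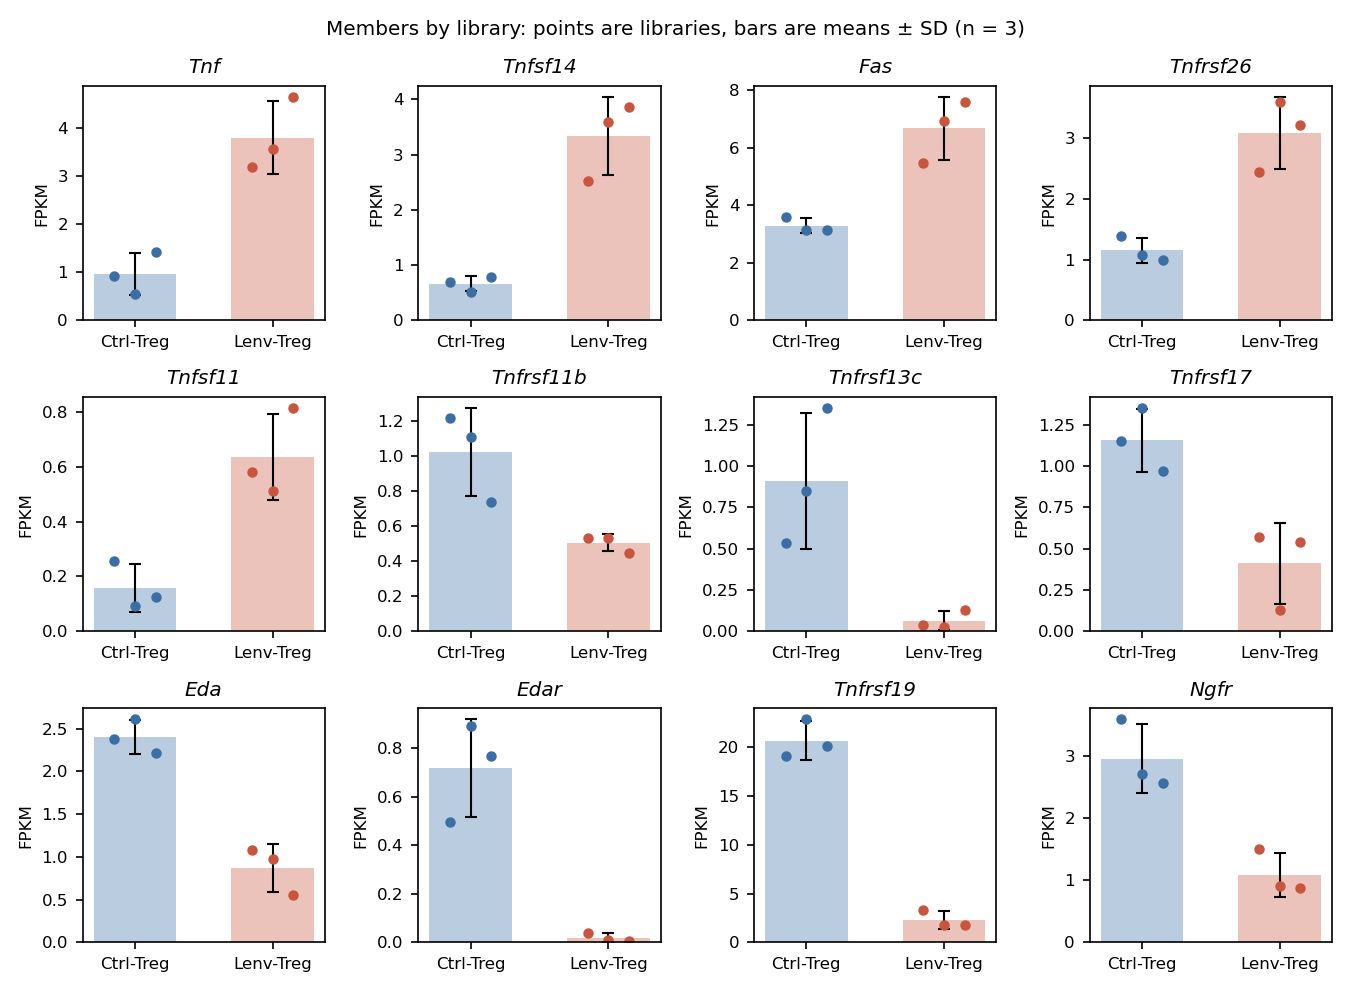
FPKM of 12 members by group, with points for libraries and bars with whiskers for the mean ± SD of 3 libraries, each panel on its own axis from 0. The 12 were picked with their results known, so that the groups do not overlap in any panel is no finding. Over all tested genes 55.4% did not overlap. Tnf, Tnfsf14, Fas, Tnfrsf26 and Tnfsf11 are higher and the other 7 are lower in Lenv-Treg, Edar being the member outside the filter.

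Among death ligands, death receptors and decoys, Fas rose, the ligand TRAIL fell and 2 of the 3 clustered decoy-type receptors rose. Of 10 genes 8 were tested, 3 rose (37.5%, beside 11.0% of all tested genes), 1 fell (12.5%, beside 30.8%) and 4 did not pass. The median difference was 0.32, beside -0.17 for all tested genes (0.11 and -0.44 with TPM scaling). Fas, the death domain receptor for Fas ligand, was 3.61, 3.14 and 3.14 FPKM in Ctrl-Treg against 5.48, 6.95 and 7.6 FPKM in Lenv-Treg. The groups did not overlap, and the mean doubled from 3.30 ± 0.272 to 6.67 ± 1.08 (SD, n = 3), a ratio of 2.02 and a difference of 0.83 (SE 0.13, adjusted p = 0.00205). Its ligand Fasl, made by cytotoxic lymphocytes, was at most 0.321 FPKM in any sample and was not tested. It had 18 reads in Ctrl-Treg against 55 in Lenv-Treg, with no overlap between the groups (exact two-sided permutation p = 0.1).

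Tnfsf10 (TRAIL), a death ligand and an interferon-responsive gene, was 5.18, 3.06 and 2.75 FPKM in Ctrl-Treg against 1.99, 1.34 and 1.39 FPKM in Lenv-Treg. All Lenv-Treg values were below all Ctrl-Treg values, and the mean was 2.33-fold lower, with a difference of -0.83 (SE 0.20, adjusted p = 0.0143). The call was lost without Lenv-Treg replicate 2 (adjusted p = 0.0537) and with quantile normalization (adjusted p = 0.0738). The mouse TRAIL receptor Tnfrsf10b overlapped between groups, at 1.37 ± 0.111 and 1.68 ± 0.258 FPKM (SD, n = 3, adjusted p = 0.208). Its difference passed with quantile normalization (0.45, adjusted p = 0.02) and was -0.0027 with TPM scaling (adjusted p = 0.987). Tnfrsf25, the receptor of TL1A, was near the filter in both groups, at 0.694 ± 0.0717 and 0.563 ± 0.177 FPKM (SD, n = 3, adjusted p = 0.383). The TL1A gene Tnfsf15 was below 0.25 FPKM in all samples, with 108 reads in Ctrl-Treg against 53 in Lenv-Treg and no overlap (exact two-sided permutation p = 0.1).

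Tnfrsf21 (death receptor 6) was 8.19, 7.32 and 5.07 FPKM in Ctrl-Treg against 11.0, 9.22 and 8.93 FPKM in Lenv-Treg. The groups did not overlap, but the difference of 0.46 (SE 0.17, adjusted p = 0.0577) missed the threshold. It passed with median of ratios scaling (adjusted p = 0.0206), in the voom fit (adjusted p = 0.0494), without Ctrl-Treg replicate 1 (adjusted p = 0.035) and with quantile normalization (adjusted p = 0.0201), and was 0.22 with TPM scaling (adjusted p = 0.385).

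Tnfrsf26, Tnfrsf22 and Tnfrsf23 are neighbours in the RefSeq gene order, similar paralogs between which reads may be shared, and the latter pair are decoy TRAIL receptors. Tnfrsf26 was 1.39, 1.08 and 0.998 FPKM in Ctrl-Treg against 2.44, 3.6 and 3.21 FPKM in Lenv-Treg, a mean 2.67-fold higher (difference 0.92, SE 0.13, adjusted p = 0.00171). Tnfrsf23 was 2.9, 2.68 and 2.26 FPKM and 3.67, 6.66 and 4.49 FPKM, 1.89-fold higher (difference 0.69, SE 0.18, adjusted p = 0.0205). For both, the groups did not overlap. The Tnfrsf23 call was lost with TPM scaling (adjusted p = 0.0576), without a filter (adjusted p = 0.0605) and without Ctrl-Treg replicate 3 (adjusted p = 0.0597). Tnfrsf22 overlapped between the groups, at 0.798 ± 0.126 and 0.960 ± 0.117 FPKM (SD, n = 3, adjusted p = 0.322). Its difference passed with quantile normalization (0.37, adjusted p = 0.0303) and was -0.02 with TPM scaling (adjusted p = 0.926). The recovered reads of the 3 genes together, which do not depend on how reads were split among them, came to 922, 782 and 667 in Ctrl-Treg against 1200, 1929 and 1503 in Lenv-Treg, without overlap (exact two-sided permutation p = 0.1 after division by depth).

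The co-stimulatory group, receptors and ligands that pass between T cells and antigen-presenting cells, held 6 of the 10 members outside the filter. Of its 11 genes 5 were tested, 1 rose, none fell and 4 did not pass, with a median difference of 0.19. Tnfrsf9 (4-1BB) was 1.1, 0.478 and 0.726 FPKM in Ctrl-Treg against 1.2, 1.85 and 3.38 FPKM in Lenv-Treg. The groups were adjacent without overlapping, the mean was 2.79-fold higher, and the difference was 0.79 (SE 0.25, adjusted p = 0.0391). The call was lost without Ctrl-Treg replicate 2 (adjusted p = 0.107), Ctrl-Treg replicate 3 (0.0813), Lenv-Treg replicate 2 (0.0827) or Lenv-Treg replicate 3 (0.0781), and without a filter (0.103). Its ligand Tnfsf9 was 1.07 ± 0.193 and 1.69 ± 0.496 FPKM (SD, n = 3), a difference of 0.37 (SE 0.15, adjusted p = 0.0913), which passed without Lenv-Treg replicate 1 (adjusted p = 0.0164) and with quantile normalization (adjusted p = 0.0274), and was 0.25 with TPM scaling (adjusted p = 0.254).

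Tnfrsf4 (OX40) and Tnfrsf18 (GITR), both carried by Tregs and activated T cells and neighbours in the genome, shared 1 high sample. Tnfrsf18 was 11.9, 9.87 and 11.6 FPKM in Ctrl-Treg against 10.4, 10.1 and 15.6 FPKM in Lenv-Treg. Tnfrsf4 was 3.24, 2.89 and 2.82 FPKM and 2.79, 2.62 and 5.79 FPKM. Lenv-Treg replicate 3 was the highest of the 6 samples for both genes. Among the other 5 samples the groups overlapped for Tnfrsf18, while for Tnfrsf4 both Lenv-Treg values were just below the Ctrl-Treg ones. The differences of 0.09 for Tnfrsf18 (adjusted p = 0.702) and 0.19 for Tnfrsf4 (adjusted p = 0.538) were each -0.10 without that library. The same sample had the highest summed FPKM of 4 Treg markers, 4.0, beside 3.09 and 2.0 in Lenv-Treg replicates 1 and 2 and 1.94 to 2.65 in Ctrl-Treg. None of the 3 tested Treg markers passed, and their part in these values was not tested. The 6 tested T cell markers included 2 that fell (33.3%, beside 30.8% of all tested genes) and none that rose, with sums of 16.2 to 23.8 FPKM in Ctrl-Treg against 10.9 to 17.2 FPKM in Lenv-Treg.

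Cd40, the receptor through which T cells activate antigen-presenting cells, overlapped between groups at 4.74 ± 0.704 and 5.37 ± 0.552 FPKM (SD, n = 3), a difference of 0.15 (SE 0.12, adjusted p = 0.341). The T cell receptor of CD70, Cd27, was 0.37, 0.296 and 0.456 FPKM in Ctrl-Treg against 0.0966, 0.178 and 0.265 FPKM in Lenv-Treg. It was lower in all Lenv-Treg samples, with 80 and 39 reads (exact two-sided permutation p = 0.1). Tnfrsf8 (CD30) showed the opposite order, with 60 reads in Ctrl-Treg against 177 in Lenv-Treg and a mean of 0.145 ± 0.0407 and 0.423 ± 0.191 FPKM (SD, n = 3, exact permutation p = 0.1). The OX40 ligand gene Tnfsf4 had 15 and 32 reads and the GITR ligand gene Tnfsf18 had 71 and 147, both without overlap (exact permutation p = 0.1 each). In the fit without a filter Tnfsf4 had a difference of 0.11 (adjusted p = 0.0189) and Tnfsf18 one of 0.22 (adjusted p = 0.115). Tnfsf8 (CD30 ligand) had 51 and 61 reads (exact permutation p = 0.9). Cd70 had 9 and 4 reads, a ratio of 0.438 with a 95% exact interval of 0.0986 to 1.57, and without Ctrl-Treg replicate 3 the ratio was 1.33 (0.19 to 14.7). These intervals cover counting error only.

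Sequence upstream of the start was available from RefSeq (GRCm38.p6) for 35 members. It was searched over 250 bases on both strands for the NF-κB site by its consensus name, the kappa B motif, because TNF family receptors act through that factor and several members are its textbook targets. Of all 27025 genes with such a window 8.23% held a match, and 4 of the 35 members (11.4%) did: Ltb, Tnfrsf9, Tnfrsf25 and Tnfrsf8. By call, matches were found in 1 of 9 members that rose, 0 of 6 that fell, 2 of 12 that did not pass and 1 of 8 outside the filter. Tnf, Tnfsf14 and Tnfrsf19, the members with the largest differences, held no match, which says only that these letters are not in this window. For 35 of the 39 member windows, bases after the start were found in a GENCODE transcript of the gene. They were not found for either Tnfrsf19 window or for those of Edar and Tnfrsf4, so the position of these windows is uncertain. The windows of Ltb and Tnfrsf9 are shown because they contrast a member that did not pass with one that rose and yet hold a like motif. They were chosen after the matches were seen. They are printed on the strand of transcription, with the matched bases in capitals, 87 bases before the start in Ltb (chr17:35194257-35194506, plus strand) and, as 2 overlapping matches, 43 and 42 bases before it in Tnfrsf9 (chr4:150927749-150927998, plus strand, 1 of its 2 windows).
Ltb: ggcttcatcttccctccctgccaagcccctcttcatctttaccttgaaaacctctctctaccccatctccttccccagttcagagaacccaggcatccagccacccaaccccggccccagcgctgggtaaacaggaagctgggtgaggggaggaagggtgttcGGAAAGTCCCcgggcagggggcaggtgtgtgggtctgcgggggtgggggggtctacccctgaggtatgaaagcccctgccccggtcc
Tnfrsf9: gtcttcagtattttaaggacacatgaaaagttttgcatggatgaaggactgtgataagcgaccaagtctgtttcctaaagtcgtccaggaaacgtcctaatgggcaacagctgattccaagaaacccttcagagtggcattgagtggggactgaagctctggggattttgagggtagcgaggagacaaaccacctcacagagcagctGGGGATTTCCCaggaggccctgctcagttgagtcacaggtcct

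The RANK system moved in opposite directions at its ligand and its soluble inhibitor. Tnfsf11 (RANKL), best known as the osteoclast differentiation factor and also made in skin, was 0.256, 0.0914 and 0.127 FPKM in Ctrl-Treg against 0.582, 0.511 and 0.813 FPKM in Lenv-Treg. All Lenv-Treg values exceeded all Ctrl-Treg values, with 42 and 170 reads, a 4.02-fold higher mean and a difference of 0.50 (SE 0.10, adjusted p = 0.00839). Tnfsf11 entered the test through the Lenv-Treg samples alone, so it had to be higher there and this adjusted p is no support. Tnfrsf11b (osteoprotegerin), a secreted decoy for RANKL, was 1.22, 1.11 and 0.741 FPKM and 0.536, 0.532 and 0.449 FPKM, 2.02-fold lower (difference -0.42, SE 0.11, adjusted p = 0.0205). The Tnfrsf11b call was lost without Ctrl-Treg replicate 1 (adjusted p = 0.0536), Ctrl-Treg replicate 2 (0.0607), Lenv-Treg replicate 2 (0.0561) or Lenv-Treg replicate 3 (0.0654), with median of ratios scaling (0.0532) and with quantile normalization (0.259). Of 6 tested fibroblast markers 3 fell and none rose, where 30.8% of all tested genes fell. Their sums were 3720 to 4620 FPKM in Ctrl-Treg against 1920 to 2650 FPKM in Lenv-Treg. Those that fell were Col1a1 (means 1130 and 304 FPKM), Col1a2 (1320 and 389 FPKM) and Thy1 (131 and 63.0 FPKM). Dcn (1120 and 1270 FPKM), Pdgfra (17.5 and 19.8 FPKM) and Lum (319 and 282 FPKM) did not pass. The part of fibroblasts in the Tnfrsf11b difference was not tested.

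The ratio of Tnfsf11 to Tnfrsf11b FPKM was 0.21, 0.0822 and 0.172 in Ctrl-Treg against 1.09, 0.961 and 1.81 in Lenv-Treg. On the log2 scale it was -2.80 ± 0.71 and 0.31 ± 0.48 (SD, n = 3). The ratio joins 2 genes already seen to differ in opposite directions, so it is a description with no test. The signalling receptor Tnfrsf11a (RANK) was 2.74, 2.01 and 1.83 FPKM and 2.9, 2.43 and 2.63 FPKM. Its groups overlapped, and the difference was 0.20 (SE 0.13, adjusted p = 0.232). It passed with quantile normalization (0.47, adjusted p = 0.0294) and was 0.00 with TPM scaling (adjusted p = 0.997).

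In the BAFF and APRIL group, which serves B cell and plasma cell survival, 2 receptors fell while neither ligand passed the test. All 5 genes were tested, and their median difference was 0.08, beside -0.17 for all tested genes. The share that fell was 40.0%, beside 30.8% of all tested genes. Tnfrsf13c (BAFF receptor) was 0.535, 0.85 and 1.35 FPKM in Ctrl-Treg against 0.0384, 0.0255 and 0.129 FPKM in Lenv-Treg. The groups were far apart, with 209 and 15 reads and a 14.2-fold lower mean (difference -0.82, SE 0.15, adjusted p = 0.00507). The ratio rested in part on Lenv-Treg replicate 3, without which it was 28.5-fold, and with quantile normalization the adjusted p was 0.0503. Tnfrsf13c entered the test through the Ctrl-Treg samples alone, so it had to be higher there and its adjusted p is no support.

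Tnfrsf17 (BCMA), a receptor of plasma cells, was 1.15, 1.35 and 0.969 FPKM in Ctrl-Treg against 0.57, 0.128 and 0.538 FPKM in Lenv-Treg. It was 2.81-fold lower without overlap (186 and 67 reads, difference -0.62, SE 0.15, adjusted p = 0.013), and the adjusted p was 0.0749 with quantile normalization. The third receptor, Tnfrsf13b (TACI), was 4.66, 3.1 and 3.18 FPKM and 4.77, 4.84 and 4.96 FPKM. Its Lenv-Treg values were all above the Ctrl-Treg ones, but the difference of 0.35 (SE 0.14) had an adjusted p of 0.0758. It passed without Ctrl-Treg replicate 1 (adjusted p = 0.00894) and with median of ratios scaling (adjusted p = 0.0282) and quantile normalization (adjusted p = 0.0225), and was 0.13 with TPM scaling (adjusted p = 0.516). The ligand genes Tnfsf13b (BAFF) and Tnfsf13 (APRIL) overlapped, with differences of 0.14 (adjusted p = 0.449) and 0.08 (adjusted p = 0.652).

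The B cell markers Ms4a1, Cd79a and Pax5 were near 0 in both groups. Mean FPKM in Ctrl-Treg against Lenv-Treg was 0.00286 and 0.0251 for Ms4a1, 0.0256 and 0.0251 for Cd79a and 0.00105 and 0.00404 for Pax5. The plasma cell gene Jchain was 0.193 and 0.795 FPKM. The sum of 6 B and plasma cell markers, 3.84 to 6.35 FPKM in Ctrl-Treg against 4.88 to 6.44 FPKM in Lenv-Treg, was mostly Cd79b, with means of 4.91 and 4.84 FPKM. No marker of this list was lower in Lenv-Treg by the test, and 1 of the 6 was tested.

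TWEAK and its receptor both rose. The receptor Tnfrsf12a (Fn14), an injury-responsive gene of epithelia, was 25.7, 32.9 and 32.9 FPKM in Ctrl-Treg against 37.3, 42.1 and 49.2 FPKM in Lenv-Treg, 1.41-fold higher (difference 0.48, SE 0.14, adjusted p = 0.0313). The ligand gene Tnfsf12 was 8.04, 6.83 and 7.26 FPKM and 9.97, 8.96 and 10.1 FPKM, 1.31-fold higher (difference 0.35, SE 0.10, adjusted p = 0.0241). The groups did not overlap for either gene. Both calls were lost with TPM scaling, where the differences were 0.20 (adjusted p = 0.182) and 0.10 (adjusted p = 0.493). Tnfrsf12a was also not called without Ctrl-Treg replicate 1 (adjusted p = 0.0817), Lenv-Treg replicate 2 (0.0808) or Lenv-Treg replicate 3 (0.0922), nor without a filter (0.0649). Tnfsf12 was not called without Ctrl-Treg replicate 2 (0.0814), Ctrl-Treg replicate 3 (0.0675), Lenv-Treg replicate 1 (0.0604) or Lenv-Treg replicate 3 (0.0698). Tnfsf12 and Tnfsf13 lie side by side and share a readthrough gene, Tnfsfm13, which was listed at 0 in all 6 samples, and an antisense gene, Tnfsf13os, at 1.48 ± 0.421 and 1.69 ± 0.45 FPKM (SD, n = 3). Whether the counting used strand is not given in the labels, so how reads were divided among them is uncertain.

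Ectodysplasin, the receptor TROY and the p75 neurotrophin receptor fell, and this role group had the lowest median difference of the 7. Of 5 genes 4 were tested, none rose, 3 fell and 1 did not pass, with a median difference of -0.90 (-0.77 with median of ratios and -1.31 with TPM scaling, beside -0.17, 0.00 and -0.44 for all genes). Tnfrsf19 (TROY), a receptor gene expressed in hair follicle progenitors, was 19.1, 22.9 and 20.1 FPKM in Ctrl-Treg against 3.31, 1.75 and 1.83 FPKM in Lenv-Treg. The groups were wide apart, with means of 20.7 ± 1.99 and 2.29 ± 0.878 FPKM (SD, n = 3), a 9.03-fold lower level and a difference of -2.75 (SE 0.18, adjusted p = 7.72e-05). It was called under all 20 alternatives, with an adjusted p of at most 0.000828 when 1 library was left out.

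Eda, the ligand of the pathway and the gene of anhidrotic ectodermal dysplasia, was 2.38, 2.61 and 2.22 FPKM in Ctrl-Treg against 1.08, 0.972 and 0.558 FPKM in Lenv-Treg. It fell 2.76-fold without overlap (difference -0.87, SE 0.13, adjusted p = 0.00173). Its receptor Edar was 0.495, 0.889 and 0.767 FPKM and 0.04, 0.00883 and 0.00449 FPKM. With only 2 samples at 0.5 FPKM or above, Edar lay just outside the filter, and Ctrl-Treg replicate 1 was just under it. It had 112, 196 and 167 reads in Ctrl-Treg against 9, 2 and 1 in Lenv-Treg, and its mean FPKM was 40.3-fold lower (exact two-sided permutation p = 0.1). In reads the ratio was 40.2 with a 95% exact interval of 22.8 to 78.3, and without Lenv-Treg replicate 1 it was 107 (36.4 to 521). Both intervals cover counting error only, not the spread between samples. In the fit without a filter the Edar difference was -0.75 with an adjusted p of 0.00428.

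Eda2r, an X-linked receptor for an ectodysplasin isoform, was 1.7, 1.87 and 0.775 FPKM in Ctrl-Treg against 1.27, 0.997 and 0.965 FPKM in Lenv-Treg. The groups overlapped through Ctrl-Treg replicate 3, and the difference was -0.21 (SE 0.18, adjusted p = 0.387). Without that library it was -0.43 (adjusted p = 0.0297). Ngfr (p75), found on Schwann cells and in the outer root sheath, was 3.59, 2.71 and 2.57 FPKM and 1.5, 0.904 and 0.867 FPKM, 2.71-fold lower without overlap (difference -0.92, SE 0.15, adjusted p = 0.0029). In the same samples 11 of 12 hair follicle markers fell (91.7%, beside 30.8% of all tested genes), all but Foxn1. Of 5 Schwann cell and nerve markers 3 fell (60.0%), with sums of 47.0 to 74.8 FPKM in Ctrl-Treg against 31.1 to 40.1 FPKM in Lenv-Treg. Their part in the differences of Tnfrsf19, Eda, Edar and Ngfr was not tested.

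Of 25 textbook ligand and receptor pairs, 16 had both genes tested, and in 4 of these both passed the test. Taken singly, 52.9% of tested members passed, beside 41.7% of all tested genes. Both rose in 3 pairs (Tnf with Tnfrsf1a, Tnf with Tnfrsf1b, and Tnfsf12 with Tnfrsf12a), both fell in none, and 1 pair, Tnfsf11 with Tnfrsf11b, moved in opposite directions. None of the 3 pairs that rose kept both calls with TPM scaling. There the adjusted p (limma) was 0.192 for Tnfrsf1a, 0.0635 for Tnfrsf1b, 0.493 for Tnfsf12 and 0.182 for Tnfrsf12a. The ligand alone passed in 5 pairs, the receptor alone in 4 and neither in 3. Pairs share members, so they are not independent. Among these pairs, Tnfsf11 and Tnfrsf13c each passed the filter through 1 group alone, so their calls are no support. The members also lie in gene clusters: by RefSeq order of protein-coding genes, 23 of the 44 lay in 9 clusters. Successive members of a cluster were adjacent or had at most 1 other gene between them. Tnf, which rose, lies between Ltb and Lta, and Tnfsf14, which rose, lies in a cluster with Cd70 and Tnfsf9. Of these neighbours, Ltb and Tnfsf9 did not pass the test, and Lta and Cd70 were outside the filter. The Tnfrsf26, Tnfrsf22 and Tnfrsf23 cluster was the one with 2 members called.

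**Figure D4:**
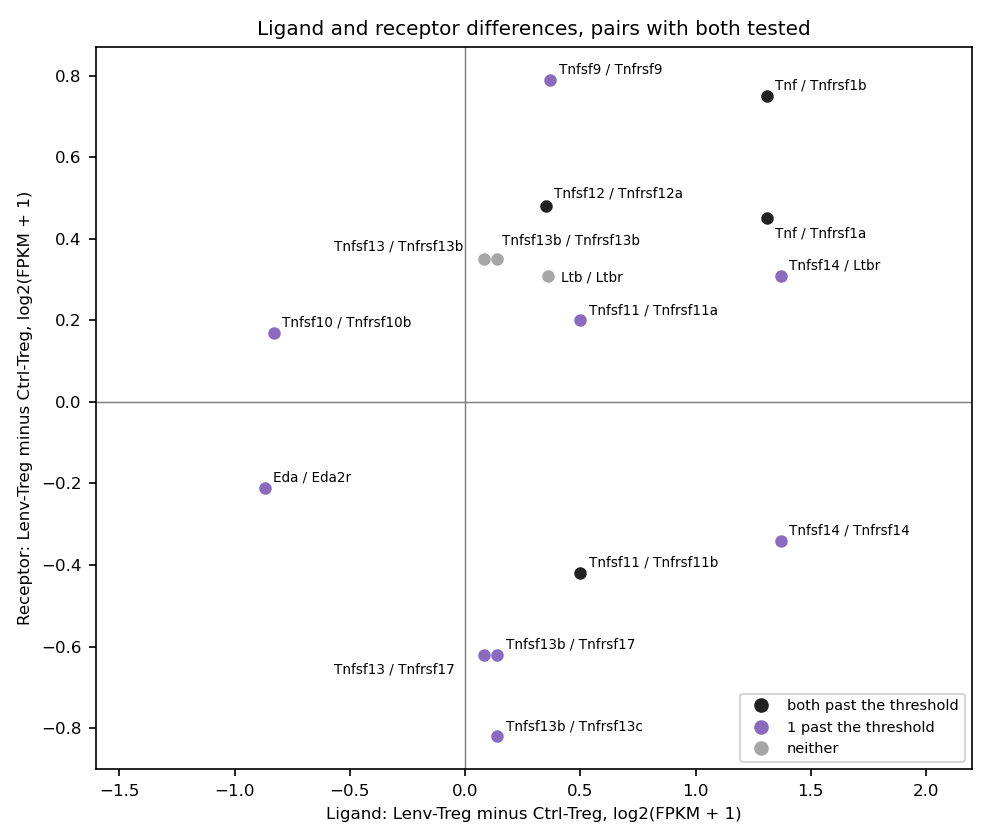
Difference of the ligand (horizontal axis) against that of its receptor (vertical axis), both Lenv-Treg minus Ctrl-Treg in log2(FPKM + 1), for pairs with both genes tested. Black points are pairs with both genes past the threshold, purple with 1 and grey with neither. The pairs of Tnf with its receptors lie to the upper right, and Tnfsf11 with Tnfrsf11b lies to the lower right.

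Downstream of the receptors, the listed genes that TNF induces were mostly higher, while the listed signalling components were called at about the share of all genes. Of 30 adaptors, kinases, ubiquitin enzymes and sheddases of the receptor complexes, all tested, 7 rose (23.3%, beside 11.0% of all tested genes), 5 fell (16.7%, beside 30.8%) and 18 did not pass. The share that passed, 40.0%, was near the 41.7% of all tested genes. The list had a median difference of -0.07 beside -0.17 for all genes. Birc3, the inhibitor of apoptosis recruited to TNF receptor complexes, rose from 8.64 ± 1.09 to 14.8 ± 1.06 FPKM (SD, n = 3, difference 0.72, adjusted p = 0.00228). The adaptor Tradd rose from 11.0 ± 0.302 to 16.4 ± 2.56 FPKM (0.53, adjusted p = 0.0109), and Tnfaip3 (A20), the feedback inhibitor, from 3.41 ± 0.615 to 6.81 ± 1.93 FPKM (0.81, adjusted p = 0.0127). Lower in Lenv-Treg was Edaradd, the adaptor of Edar, which went from 1.79 ± 0.225 to 0.871 ± 0.033 FPKM (-0.58, adjusted p = 0.00273), on the same side as Eda. Traf4 went from 6.34 ± 0.701 to 3.41 ± 0.415 FPKM (-0.74, adjusted p = 0.00231). Traf5, a TRAF of co-stimulatory receptors, went from 4.68 ± 0.231 to 3.30 ± 0.528 FPKM (-0.41, adjusted p = 0.0244), a call lost without Ctrl-Treg replicate 2 (0.0589), Ctrl-Treg replicate 3 (0.0729) or Lenv-Treg replicate 2 (0.0792).

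Of 22 genes known to respond to TNF, 21 were tested, 18 rose (85.7%, beside 11.0% of all tested genes), 1 fell (4.76%, beside 30.8%) and 2 did not pass. Their median difference was 1.5, with 1.69 and 1.23 under median of ratios and TPM scaling. The list was chosen with earlier results of these data known, so these shares are a description and not independent evidence of TNF signalling. The neutrophil chemokine gene Cxcl2 rose from 0.844 ± 0.97 to 445 ± 153 FPKM (SD, n = 3, difference 7.98, adjusted p = 2.9e-05). The adhesion molecule gene Vcam1 rose from 2.86 ± 0.608 to 11.7 ± 0.88 FPKM (1.73, adjusted p = 0.000146) and the stress response gene Ier3 from 33.2 ± 3.38 to 124 ± 24.1 FPKM (1.86, adjusted p = 0.000185). Cxcl10, which is also an interferon-induced gene, fell from 5.0 ± 2.32 to 1.12 ± 0.362 FPKM (-1.42, adjusted p = 0.00855). Many of these genes respond to other cytokines too, and neutrophils, whose 9 markers all rose, express several of them. Endothelial markers, of which 2 of 6 rose (33.3%, beside 11.0% of all tested genes), summed to 53.1 to 93.2 FPKM against 96.8 to 129 FPKM. The part of cell composition in these counts was not tested.

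Of 8 genes tied to lymphotoxin beta receptor signalling 5 were tested, 2 rose, 1 fell and 2 did not pass. The B cell chemokine gene Cxcl13 rose from 54.6 ± 24.8 to 275 ± 48.1 FPKM (SD, n = 3, difference 2.41, adjusted p = 0.00155). Nfkb2, the NF-κB subunit of the alternative pathway, rose from 2.46 ± 0.12 to 3.39 ± 0.142 FPKM (0.34, adjusted p = 0.0164), a call lost without Ctrl-Treg replicate 3 (0.0595) or Lenv-Treg replicate 2 (0.0629). The T cell zone chemokine gene Ccl19 went from 3.32 ± 1.05 to 1.78 ± 0.385 FPKM (-0.62, adjusted p = 0.0356). That call held in only 1 of 6 fits with a library left out, with an adjusted p of 0.0756 without Ctrl-Treg replicate 1, 0.083 without Ctrl-Treg replicate 3, and 0.1, 0.0769 and 0.0538 without Lenv-Treg replicates 1, 2 and 3. Glycam1 and Chst4, genes of high endothelial venules, were listed at 0 in all samples. There were 2 superfamily genes outside the naming rule. Relt rose from 1.12 ± 0.0781 to 1.76 ± 0.176 FPKM (0.38, adjusted p = 0.0145, but 0.0565 without Lenv-Treg replicate 2), and Cd40lg, the CD40 ligand gene of T cells, was at 0.0522 and 0.0127 FPKM and was not tested.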

How the data were processed

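The authors deposited 1 table of gene FPKM values for 6 mouse skin samples. The submitters' processing notes name the build GRCm39. The aligner, the counter and the annotation were not given in the sources used here. All 6 columns matched a sample title. Whole reads were recovered from the FPKM steps for 13924 of 13945 genes passing the filter (99.85%, tolerance 0.005 reads plus 2e-07 per read), which also gave the depth of 38704536 to 40248462 reads. Genes with FPKM of at least 0.5 in at least 3 samples were tested on log2(FPKM + 1), a scale that understates changes of low genes, with limma 3.58.1 in R 4.3.3 (mean-variance trend, 2 groups, two-sided, Benjamini-Hochberg adjustment over 13945 genes, threshold 0.05). Differences are Lenv-Treg minus Ctrl-Treg, and folds are ratios of mean FPKM. Members outside the filter had an exact permutation test of FPKM, whose smallest p with 3 against 3 samples is 0.1. The test was checked on simulated data. All members are named, and in pathway lists the 3 genes of smallest p per direction. Members and lists were chosen with earlier results of these data known, so counts over a list are not independent evidence. Promoter windows are RefSeq GRCm38.p6 and were matched by symbol. The 20 alternatives covered pseudocount, filter, scaling, variance model, threshold, a count-based fit (limma voom), a replicate block and leaving out each library. Some listed marker genes are not reported here.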

Additional observations from a re-analysis of the deposited data

How the results depend on the processing

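Among all genes, 1532 were higher and 4289 lower. With median of ratios scaling the counts were 2417 and 2417, with TPM scaling 947 and 7970, at a threshold of 0.01 925 and 2246, with a minimum difference of 1 524 and 816, and with quantile normalization 2304 were lower. Leaving out 1 library gave 1152 to 1447 higher and 2780 to 3900 lower, the 2780 without Lenv-Treg replicate 2. Of the superfamily members 11 were higher and 7 lower. Higher members numbered 6 with TPM scaling, 18 with quantile normalization, 5 at a threshold of 0.01, 2 with a minimum difference of 1, and 8 to 12 with a library left out. Lower members numbered 4 with a filter at FPKM 1, 3 with quantile normalization, 4 at a threshold of 0.01, 1 with a minimum difference of 1, and 5 to 8 with a library left out. The 10 members outside the filter became 0 with no filter and 17 with a filter at FPKM 1, by construction. Pathway list members were 28 higher and 7 lower. Higher ones numbered 18 with TPM scaling, 15 at a threshold of 0.01, 13 with a minimum difference of 1, and 20 to 27 with a library left out. Lower ones numbered 4 with no filter, 3 with median of ratios scaling, 17 with TPM scaling, 3 with quantile normalization, 3 at a threshold of 0.01, 1 with a minimum difference of 1, and 3 to 6 with a library left out (4 when Ctrl-Treg replicate 1 or Ctrl-Treg replicate 3 was left out, 3 when Lenv-Treg replicate 2 was). Stricter thresholds call fewer genes by construction; otherwise the cause was not tested.

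Members that did not pass changed sign in some settings. With TPM scaling the differences were -0.0027 for Tnfrsf10b, -0.19 for Tnfrsf18, -0.02 for Tnfrsf22, -0.05 for Tnfrsf4, -0.03 for Tnfsf13, -0.02 for Tnfsf13b and -0.09 for Cd40. With quantile normalization they were 0.12 for Tnfrsf25 and 0.06 for Eda2r. With sample weights Tnfrsf18 was at -0.0028. With 1 library left out, Tnfrsf18 ranged from -0.10 (without Lenv-Treg replicate 3) to 0.19, Tnfrsf4 from -0.10 (the same library) to 0.35, and Tnfsf13 from -0.05 (without Ctrl-Treg replicate 2) to 0.16. No member that passed the test changed sign under any alternative run.

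Samples with the same number in both groups correlated at 0.196, -0.011 and 0.328 in their deviations from the group means, so the numbers were not taken to pair the samples. With the replicate block, 12 members were higher and 7 lower, the added call being Tnfrsf21 (adjusted p = 0.0248), against 1637 and 4270 genes in all and 28 and 8 pathway list members. Samples correlated best with their own number for replicates 1 and 3 but not 2. Depth limits the lowest members: Cd70, Lta, Tnfsf4 and Fasl rest on fewer than 100 reads over all 6 libraries.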
